A study of Mus musculus with 23 samples.

Results

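Bone marrow-derived macrophages (BMDM) lacking both MAP kinase-activated protein kinases, MK2 and MK3, were compared with wild-type (wt) BMDM in the resting state, that is, after 120 min in cell culture medium without LPS. The comparison used all arrays of both conditions, 4 of MK2/3-/- BMDM and 4 of wt BMDM, out of 23 arrays in the series, and covered 26014 genes. The mice were male C57BL/6 animals by the labels (C57BL/6J for the knockout lines in the methods), 12, 13, 13 and 12 weeks old for wt replicates 1 to 4 and 11, 12, 14 and 12 weeks old for MK2/3-/- replicates 1 to 4. Bone marrow from the femur had been differentiated in macrophage colony-stimulating factor, which was withdrawn before the experiment, so that every culture shared this differentiation. The remaining 15 arrays held MK2-/- BMDM in medium (3 arrays) and all 3 genotypes after 120 min with 100 ng/ml LPS, the bacterial cell wall component that activates Toll-like receptor 4. MK2 and MK3 were missing from the germ line in the MK2/3-/- mice, and hence also during differentiation. By the methods the 4 replicates of a group were independent experiments. The labels do not say which arrays of different genotypes belonged to 1 experiment.

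MK2 and MK3, encoded by Mapkapk2 and Mapkapk3, are closely related kinases that p38 MAP kinase activates. In activated macrophages MK2 phosphorylates proteins that bind AU-rich elements, among them tristetraprolin, and by this route controls the stability and translation of cytokine transcripts. MK2 also phosphorylates the small heat shock protein Hsp27 and so reaches the actin cytoskeleton. In resting cells the cascade is largely inactive.

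All wt arrays lay on 1 slide and all MK2/3-/- arrays on another, and scan times followed the slides, so that genotype and slide cannot be told apart in any difference given here. The share of probes well above background ran from 57.1% to 60.8% in wt BMDM in medium and from 47.5% to 69.1% in MK2/3-/- BMDM in medium, where replicate 1 had the lowest and replicate 2 the highest share of all 23 arrays. Within wt BMDM the arrays correlated at 0.973 to 0.989 over genes, within MK2/3-/- BMDM at 0.972 to 0.987, and between the genotypes at 0.96 to 0.99. The Y-linked genes Ddx3y and Eif2s3y were well above background on all 8 arrays and Xist on none of them, which is the pattern of male cells. One library of another group, labelled MK2-/- LPS replicate 3, went against its male label in these genes, and its part in the shared estimate of the spread is given with the counts. Of 19 macrophage markers measured, all were well above background on the 4 arrays of at least 1 genotype and none passed the threshold. Csf1r, the receptor of the differentiation factor, differed by 0.03 on the log2 scale (95% interval -0.19 to 0.25) and Adgre1, which encodes a macrophage surface receptor, by 0.02 (-0.41 to 0.46).

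Few transcripts passed the adjusted threshold between resting MK2/3-/- BMDM and resting wt BMDM. Of 26014 genes, 20 (0.0769%) passed an adjusted p of 0.05 in limma, 6 of them (0.0231%) higher and 14 (0.0538%) lower in MK2/3-/- BMDM. At an unadjusted p under 0.05 there were 1223 genes (4.7%), 642 (2.47%) higher and 581 (2.23%) lower. On simulated arrays with the gene means and spreads of these data, the fit recovered 38% of 100 genes shifted by 1 on the log2 scale. Of 100 genes shifted by 2 it recovered 78%, so that a gene short of the threshold can still differ. The median difference of all genes was 0.02 on the log2 scale. When each array was scaled to its 75th percentile instead, this median was 0.17, with 7 genes higher and 9 lower past the adjusted threshold and 3212 higher and 241 lower at an unadjusted p under 0.05. The number of genes past the adjusted threshold was 11 without wt replicate 4, 12 without MK2/3-/- replicate 1 and 11 without MK2/3-/- replicate 2. It was 14 to 19 when any other of the 8 arrays was left out. Without both MK2/3-/- replicates 1 and 2 it was 19, of which 7 were among the 20. Without the library labelled MK2-/- LPS replicate 3 it was 16. With only the 8 arrays in the fit it was 11, and with the replicate number as a block within them 0 (1628 genes at an unadjusted p under 0.05).

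**Figure D1:**
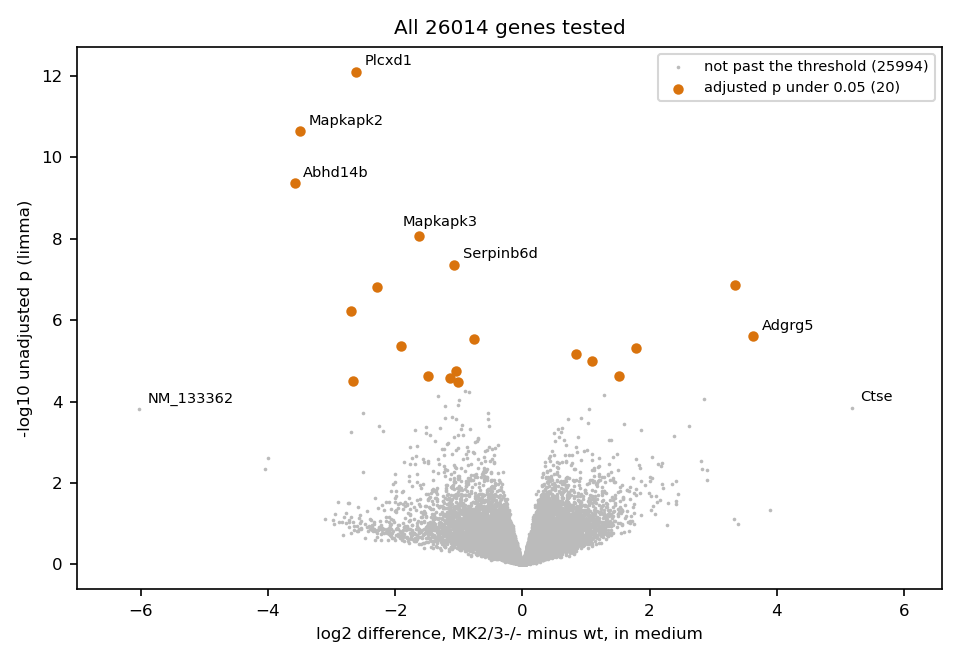
Each point is 1 of the 26014 genes, with the log2 difference between MK2/3-/- and wt BMDM in medium on the horizontal axis and -log10 of the unadjusted limma p on the vertical axis; orange marks the 20 genes past the adjusted threshold. Ctse and NM_133362 had the largest differences in either direction but lie lower on the vertical axis than the orange points.

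The deleted genes were the first check. Mapkapk2 had log2 signals of 12.46, 12.64, 11.49 and 12.28 in wt BMDM and of 8.61, 8.57, 8.91 and 8.79 in MK2/3-/- BMDM. The groups did not overlap, and wt replicate 3 was the lowest of its group. Mapkapk2 fell by 3.50 ± 0.25 (SE, 4 against 4 arrays) on the log2 scale, or 11.3-fold, with an adjusted p of 2.98e-07. Mapkapk3 had signals of 13.12, 13.52, 13.58 and 13.78 in wt BMDM and of 11.97, 11.56, 12.08 and 11.89 in MK2/3-/- BMDM. It fell by 1.62 ± 0.17, or 3.08-fold, with an adjusted p of 5.69e-05. Both probes stayed well above background on all 4 MK2/3-/- arrays, and the position of either probe relative to the deleted part of its gene is not given in the sources used here. After LPS, on other arrays of the same cultures, Mapkapk3 fell by 3.30 ± 0.17 (adjusted p of 1.13e-09). The drop after LPS was larger than that in medium by 1.68, with an adjusted p of 0.0113 for the interaction; this interaction term passed the threshold for 4 genes (0.0154%).

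Abhd14a and Abhd14b, which encode alpha/beta hydrolase domain proteins, are neighbours on chromosome 9, at places 17 and 16 before Mapkapk3 when measured genes are counted in the order of the reference. They lie on opposite strands with their starts facing away from each other, 962 bases apart. Their promoter windows, from 250 bases before to 50 after the start (RefSeq, GRCm38.p6), are shown because both transcripts were lower in MK2/3-/- BMDM; capitals mark CG dinucleotides.
Abhd14a, chr9:106447629-106447928, minus strand: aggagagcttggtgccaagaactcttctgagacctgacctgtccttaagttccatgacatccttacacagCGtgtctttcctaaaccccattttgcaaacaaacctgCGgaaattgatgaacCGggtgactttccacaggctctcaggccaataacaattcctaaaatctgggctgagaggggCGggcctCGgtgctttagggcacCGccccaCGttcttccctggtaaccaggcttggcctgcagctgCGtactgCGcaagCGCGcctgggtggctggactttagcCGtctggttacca
Abhd14b, chr9:106448390-106448689, plus strand: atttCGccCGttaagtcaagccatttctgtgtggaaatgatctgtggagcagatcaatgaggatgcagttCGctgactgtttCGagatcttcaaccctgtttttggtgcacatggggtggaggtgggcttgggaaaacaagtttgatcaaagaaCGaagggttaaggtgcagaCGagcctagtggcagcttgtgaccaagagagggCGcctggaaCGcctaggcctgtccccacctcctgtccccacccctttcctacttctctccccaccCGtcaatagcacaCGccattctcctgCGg
The windows held 12 and 11 CG dinucleotides, against a median of 7 over 32851 windows of the same length. As many or more were found in 39.6% and 41.4% of all windows.

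Abhd14b had log2 signals of 10.69, 10.89, 11.10 and 10.81 in wt BMDM and of 7.91, 7.54, 6.68 and 7.05 in MK2/3-/- BMDM. The lowest wt array thus lay well above the highest MK2/3-/- array. Abhd14b fell by 3.58 ± 0.31, or 11.9-fold, with an adjusted p of 3.72e-06, the largest decrease among the genes past the threshold. Abhd14a had signals of 10.31, 8.41, 9.48 and 9.42 in wt BMDM and of 6.07, 5.94, 7.36 and 7.62 in MK2/3-/- BMDM. It fell by 2.66 ± 0.49, with an adjusted p of 0.0422. The 2 groups spread widely for Abhd14a, and its adjusted p stayed under the threshold in 2 of the 8 fits that left out 1 array (without wt replicate 2, 0.027, and without MK2/3-/- replicate 4, 0.0349; 0.0585 to 0.219 in the others). The next gene in order, Pcbp4, which encodes a poly(C)-binding RNA-binding protein, had signals of 10.38, 8.84, 9.40 and 9.16 in wt BMDM and of 6.26, 6.24, 7.09 and 8.20 in MK2/3-/- BMDM. Its difference of -2.50 ± 0.54 had an adjusted p of 0.151 and did not pass the threshold.

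Around Mapkapk3, 2 of the 40 nearest measured genes passed the adjusted threshold, Abhd14a and Abhd14b, beside 0.0769% of all genes, and 10 had an unadjusted p under 0.05, 5 in each direction, beside 4.7% of all genes. Cish, a cytokine-inducible suppressor of signalling next to Mapkapk3, differed by -1.60 ± 0.59 (adjusted p of 0.896). It was well above background on all 4 wt arrays but on only 2 of the 4 MK2/3-/- arrays, so that its size is uncertain. Dock3 on the other side differed by 0.01 ± 0.25 (adjusted p of 1). Around Mapkapk2 on chromosome 1, 0 of the 40 nearest measured genes passed the adjusted limma threshold and 5 had an unadjusted p under 0.05, 2 higher and 3 lower, beside the same 4.7% of all genes. Il10, which encodes the anti-inflammatory cytokine and lies next to Mapkapk2, had signals of 5.28, 6.10, 6.30 and 5.60 in wt BMDM and of 5.54, 6.45, 6.23 and 6.36 in MK2/3-/- BMDM, which overlap, and differed by 0.32 ± 0.47 (95% interval -0.66 to 1.30). Dars, the aspartyl-tRNA synthetase gene at place 17 before Mapkapk2, differed by -0.90 ± 0.17 with an adjusted p of 0.0683.

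Ctse, 8 places after Mapkapk2, encodes the aspartic protease cathepsin E and had the largest positive difference of all genes. Its signals were 5.05, 6.02, 11.11 and 6.20 in wt BMDM and 12.62, 12.15, 12.18 and 12.17 in MK2/3-/- BMDM. The groups did not overlap, and wt replicate 3 lay far above the other wt arrays and just under the MK2/3-/- arrays. The difference of 5.18 ± 1.09 had an adjusted p of 0.126. Without wt replicate 3 it was 6.52 with an adjusted p of 0.00197, against 0.19 to 0.511 when any other array was left out. After LPS the wt array of the same replicate number was again the high one, with wt signals of 4.95, 6.01, 10.81 and 5.73. In MK2-/- BMDM in medium Ctse read 13.11, 12.63 and 12.47.

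**Figure D2:**
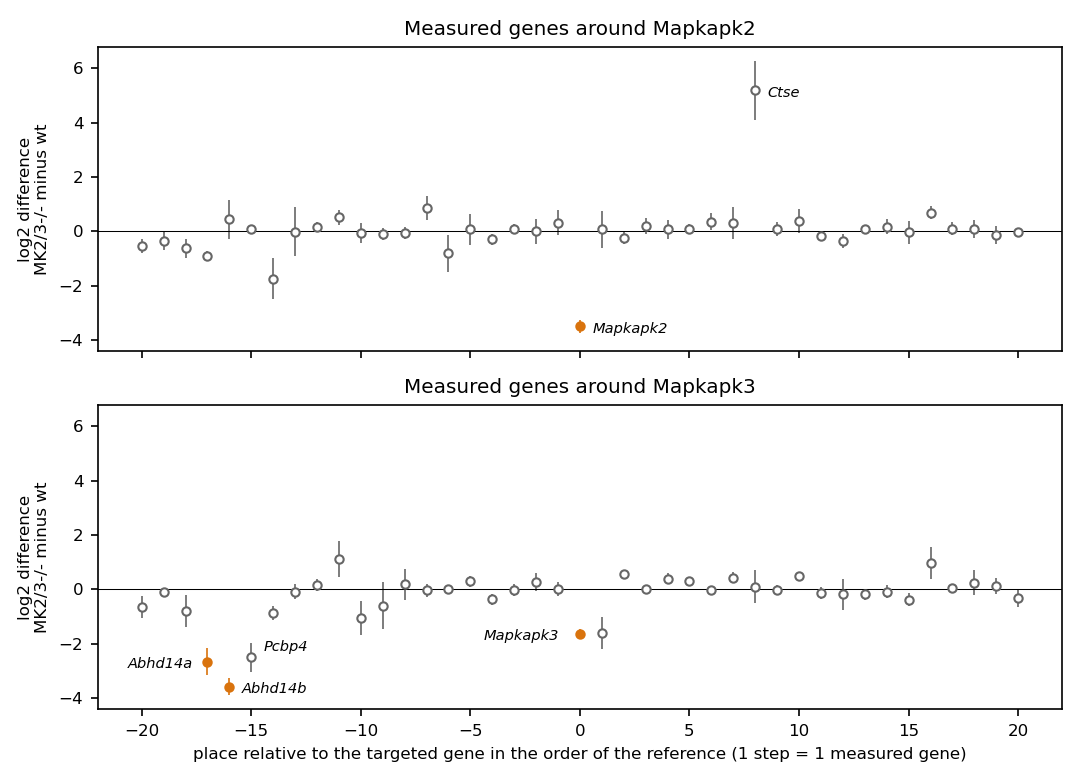
Log2 difference between MK2/3-/- and wt BMDM in medium (points, bars are ± SE from limma) for the 20 nearest measured genes on each side of Mapkapk2 and of Mapkapk3, in reference order; filled orange points passed the adjusted threshold. Besides the targeted genes, only Abhd14a and Abhd14b are filled, and Ctse has the largest difference, 5.18.

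Away from these loci, Plcxd1 gave the smallest p of all genes. It encodes a protein with a phospholipase C-like domain and lies on chromosome 5. Its signals were 11.88, 11.74, 11.87 and 11.84 in wt BMDM and 9.37, 9.08, 9.09 and 9.35 in MK2/3-/- BMDM. Plcxd1 fell by 2.61 ± 0.15, or 6.12-fold, with an adjusted p of 2.04e-08. The gene beside it in the order of measured genes, Zfp932, a zinc finger gene, had signals of 9.50, 9.70, 9.85 and 9.78 in wt BMDM and of 8.68, 8.83, 8.70 and 8.54 in MK2/3-/- BMDM. Zfp932 fell by 1.02 ± 0.19 (adjusted p of 0.0422), a call that was lost in each of the 8 fits that left out 1 array (adjusted p of 0.0771 to 0.155). Lyar, also on chromosome 5, 370 places before Zfp932, encodes a nucleolar zinc finger protein. Its signals were 5.87, 5.28, 5.55 and 5.69 in wt BMDM and 3.44, 3.53, 5.04 and 4.44 in MK2/3-/- BMDM, where it was well above background on 3 of 4 arrays. Lyar fell by 1.48 ± 0.27 (adjusted p of 0.0367), and only without wt replicate 2 (0.0491), MK2/3-/- replicate 3 (0.00117) or MK2/3-/- replicate 4 (0.0498) did the call remain among the fits with 1 array left out; the others gave 0.102 to 0.182. With normexp background correction of the raw signal, whose offset of 50 by construction draws low signals together, its difference was -0.42 (adjusted p of 0.127).

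Ccrl2, on chromosome 9 and 121 places after Mapkapk3, encodes an atypical chemokine receptor that binds the chemoattractant chemerin. It had signals of 6.4, 7.52, 7.48 and 7.15 in wt BMDM and of 8.67, 8.76, 8.60 and 8.60 in MK2/3-/- BMDM, with no overlap. Ccrl2 rose by 1.52 ± 0.27, or 2.87-fold, with an adjusted p of 0.0367. The call held without wt replicate 2 (0.0414) or wt replicate 3 (0.0432) and was lost without each of the other 6 arrays (0.0792 to 0.174). With normexp the Ccrl2 difference was 1.16 (adjusted p of 0.0873). Among all 28 alternative settings the call held in 14.

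Ipo9, which encodes a nuclear import receptor, lies on chromosome 1, 72 places after Mapkapk2. Its signals were 8.29, 8.48, 8.73 and 8.59 in wt BMDM and 9.64, 9.52, 9.80 and 9.52 in MK2/3-/- BMDM. Ipo9 rose by 1.1 ± 0.18 (adjusted p of 0.0182), with the call kept without wt replicate 3 (0.0337) or MK2/3-/- replicate 4 (0.0498) and adjusted p of 0.0516 to 0.104 without any other array. Adgrg5, an adhesion G protein-coupled receptor gene on chromosome 8, did not stand well above background in wt BMDM, where its signals were 2.31, 1.92, 1.92 and 2.53, but did on all 4 MK2/3-/- arrays, with signals of 5.94, 5.26, 6.20 and 5.82. The wt values give only a bound, so that on the scale of the processed signal Adgrg5 was at least 5.17-fold higher in MK2/3-/- BMDM; its adjusted p was 0.00717. The bound sets the mean of the 4 MK2/3-/- arrays against the lowest signal well above background on each wt array. The bound does not hold on other scales: with normexp and its offset of 50 the Adgrg5 difference was 0.78 on the log2 scale (adjusted p of 0.00925), and without both MK2/3-/- replicates 1 and 2 the adjusted p was 0.0505.

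Serpinb6d encodes an intracellular serine protease inhibitor of the clade B family and lies on chromosome 13. It had signals of 10.01, 10.34, 10.34 and 10.15 in wt BMDM and of 9.13, 9.05, 9.18 and 9.22 in MK2/3-/- BMDM, and fell by 1.07 ± 0.12 (adjusted p of 0.000224). Its close relative Serpinb6e differed by -0.84 ± 0.16 (adjusted p of 0.0694), and whether either probe also binds the transcript of the other gene was not tested. Acad9, a mitochondrial acyl-CoA dehydrogenase that also serves in the assembly of respiratory complex I, lies on chromosome 3. Its signals were 11.19, 10.69, 10.67 and 10.66 in wt BMDM and 9.59, 9.64, 9.84 and 9.58 in MK2/3-/- BMDM. Acad9 fell by 1.14 ± 0.21 (adjusted p of 0.0374), and the call was lost in each of the 8 fits that left out 1 array (0.0686 to 0.207).

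**Figure D3:**
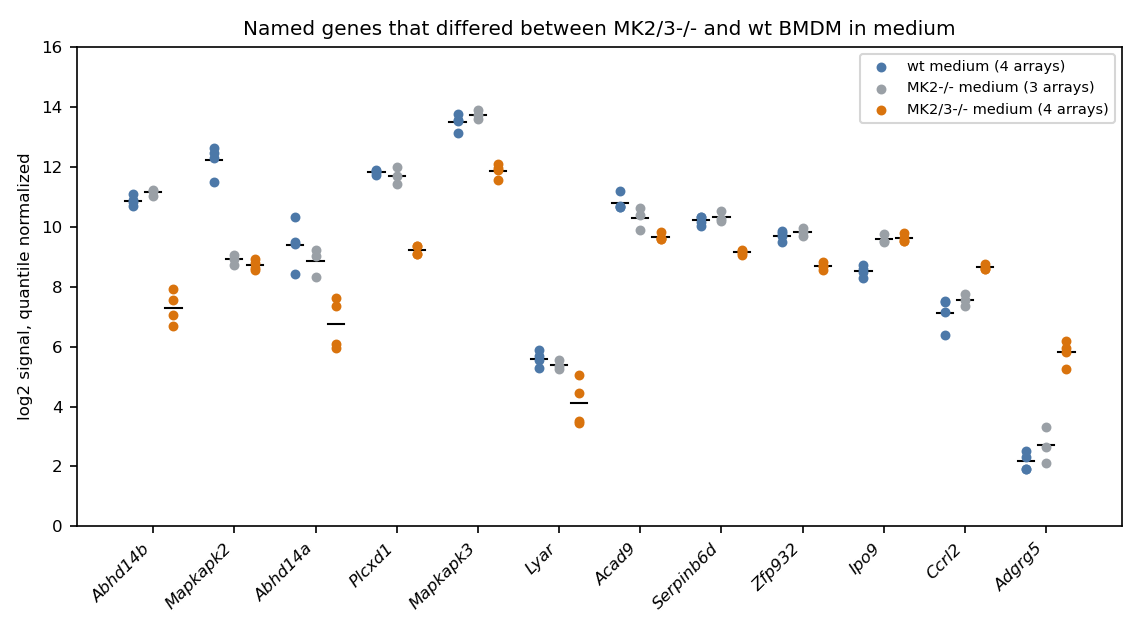
Log2 signal per array (points) and group mean (black lines) of 12 named genes past the adjusted threshold, in wt, MK2-/- and MK2/3-/- BMDM in medium. Blue and orange points do not overlap for any of the 12 genes; the grey MK2-/- points lie with the orange ones for Mapkapk2 and Ipo9.

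A further 7 genes past the threshold are known to the array by an accession that the reference table does not hold. AK007220 did not stand well above background in wt BMDM, with signals of 2.37, 2.37, 3.07 and 3.01, but did on all MK2/3-/- arrays, with 7.31, 5.34, 6.05 and 5.53, at least 6.16-fold higher on the scale of the processed signal (adjusted p of 0.000576). With normexp and its offset of 50 the AK007220 difference was 0.9 on the log2 scale (adjusted p of 0.0518), under that bound. AK018404 had signals of 8.74, 9.02, 7.97 and 8.55 in wt BMDM and of 5.89, 5.62, 6.36 and 5.60 in MK2/3-/- BMDM, and fell by 2.70 ± 0.37 (adjusted p of 0.00191). NR_002840 fell by 2.29 ± 0.28 on its brightest probe (adjusted p of 0.000576). Its other probes differed by -1.26 and 0.19, so that the probes disagreed. XM_003945321 rose by 0.84 ± 0.14 (adjusted p of 0.0137) and XM_001476155 fell by 0.76 ± 0.12 (adjusted p of 0.00773). AK035916 rose by 1.78 ± 0.28 (adjusted p of 0.0106) but was well above background on only 1 MK2/3-/- array, and AK140124 fell by 1.04 ± 0.18 (adjusted p of 0.0311) while below that mark on all 8 arrays, so that no fold is given. The largest decrease of all genes belonged to NM_133362, with signals of 13.49, 12.69, 8.49 and 12.07 in wt BMDM and of 4.90, 4.83, 4.73 and 8.16 in MK2/3-/- BMDM. Its groups did not overlap, yet 1 array in each group stood apart, and the difference of -6.03 ± 1.28 did not pass the threshold (adjusted p of 0.128; 0.0378 without wt replicate 3 and 0.0723 to 0.511 without any other array).

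Of the 20 genes, 10 kept an adjusted p under 0.05 whichever of the 8 arrays was left out: Mapkapk2, Mapkapk3, Abhd14b, Plcxd1, Serpinb6d, Adgrg5, AK007220, AK018404, NR_002840 and XM_001476155.

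The same genes were then read in the other conditions. The MK2/3-/- and wt BMDM after LPS were other arrays of the same cultures and slides, and so no independent repeat. After LPS, 467 genes (1.8%) differed between MK2/3-/- and wt BMDM. Of the 12 named genes described above, all but Lyar passed the threshold after LPS as well, in the direction seen in medium. Abhd14b differed by -3.47 after LPS, Plcxd1 by -2.47, Serpinb6d by -0.96 and Ipo9 by 1.53. Lyar, at -0.89 ± 0.27 (adjusted p of 0.103), did not pass. Ccrl2 was also strongly raised by LPS itself, from a mean of 7.14 to 13.13 in wt BMDM and from 8.66 to 15.00 in MK2/3-/- BMDM, and stayed 1.86 higher in MK2/3-/- BMDM after LPS.

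MK2-/- BMDM in medium were set beside the MK2/3-/- values, with the caution that both comparisons use the same wt arrays and that MK2-/- arrays lay on a slide of their own. Against wt, 3 genes (0.0115%) passed the threshold in MK2-/- BMDM, and 12 (0.0461%) differed between MK2/3-/- and MK2-/- BMDM. The 3 genes were Mapkapk2, which differed from wt by -3.31 in MK2-/- BMDM, AK018404 and NR_002840. AK018404 differed from wt by -2.72 (adjusted p of 0.0205 in limma) and NR_002840 by -2.04 on its brightest probe (0.0213). Between MK2/3-/- and MK2-/- BMDM these 2 differed by 0.02 and -0.26, short of the threshold. Abhd14b, Plcxd1, Mapkapk3, Serpinb6d and Zfp932 differed between MK2/3-/- and MK2-/- BMDM by -3.85, -2.48, -1.86, -1.18 and -1.13, all past the threshold. Ipo9, with 9.75, 9.52 and 9.48 in MK2-/- BMDM, differed from MK2/3-/- BMDM by 0.04 and from wt by 1.06 (adjusted p of 0.248). Acad9 in MK2-/- BMDM, with 10.38, 10.64 and 9.88, lay between the other genotypes and passed neither test. Adgrg5 was not well above background on any of the 3 MK2-/- arrays.

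**Figure D4:**
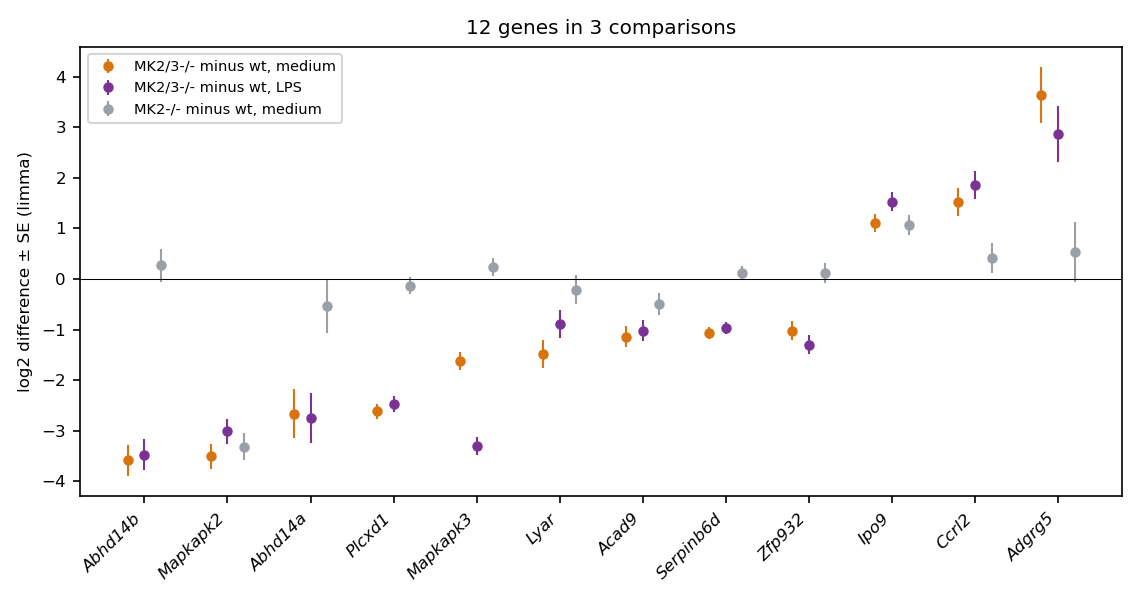
Log2 difference ± SE (limma) of 12 named genes for MK2/3-/- minus wt in medium (orange), MK2/3-/- minus wt after LPS (purple) and MK2-/- minus wt in medium (grey). Orange and purple points lie on the same side of 0 for all 12 genes and are farthest apart for Mapkapk3; both comparisons in medium share the wt arrays.

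Pathway genes were read from lists. In 30 lists of pathway and cell type genes, 749 genes were measured and 3 (0.401%) passed the adjusted threshold, beside 0.0769% of all genes. These were the deleted genes Mapkapk2 and Mapkapk3, in the p38 kinase cascade, and Ccrl2 among the chemoattractant receptors. At an unadjusted p under 0.05 there were 39 (5.21%), beside 4.7% of all genes. In limma, 28 of the 30 lists held 0 genes past the adjusted threshold, and they held 0 in each of the 28 alternative settings too.

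In the p38 kinase cascade, 24 genes were measured, 12 lay above 0 and the median difference was 0, beside 0.02 for all genes. Past the adjusted threshold were only the 2 deleted genes, both lower. At an unadjusted p under 0.05, 4 were lower, the deleted genes among them, beside 2.23% of all genes. Mapk14, which encodes p38 alpha, had signals of 13.83 to 14.07 in wt BMDM and of 13.84 to 14.02 in MK2/3-/- BMDM, a difference of 0.03 (95% interval -0.22 to 0.27). Mapkapk5, the kinase related to MK2 and MK3 that remained, differed by 0.07 (-0.11 to 0.25). Among 18 genes of AU-rich element binding and deadenylation, the median was -0.01 and 0 passed. At an unadjusted p under 0.05, 2 were lower, beside 2.23% of all genes. Zfp36, which encodes tristetraprolin, had signals of 8.41, 9.35, 8.96 and 9.06 in wt BMDM and of 9.25, 8.73, 8.98 and 8.63 in MK2/3-/- BMDM, which overlap, and differed by -0.05 (-0.79 to 0.69). Cnot7, a deadenylase subunit, had the largest difference of the list, -0.43 ± 0.12 (adjusted p of 0.419).

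Of 24 cytokine genes, 7 were not well above background on any of the 8 arrays, and the median difference was 0.10. Tnf had signals of 9.20, 10.35, 9.09 and 9.24 in wt BMDM and of 10.80, 10.48, 8.90 and 9.97 in MK2/3-/- BMDM, which overlap, and differed by 0.57 (-0.21 to 1.34). Il1b differed by 1.20 ± 0.39 (adjusted p of 0.781), with MK2/3-/- replicate 1 the highest at 11.74. Of 25 chemokine genes, 3 were higher and 2 lower at an unadjusted p under 0.05, beside 2.47% and 2.23% of all genes. None passed the adjusted threshold, and the median was 0.27. The largest positive difference was that of Ccl4, 1.13 ± 0.35 (adjusted p of 0.69). Among 20 chemoattractant receptor genes the median was 0.31 and 15 lay above 0, with Ccrl2 the only one past the threshold. The medians of this list by array were -0.38, 0.44, 0.14 and -0.18 in wt BMDM and 0.74, 0.69, -0.22 and 0.15 in MK2/3-/- BMDM, relative to the wt mean, so that the groups overlapped. For 51 interferon-stimulated genes the median was 0.17, 0 had an unadjusted p under 0.05, and both genotypes spread widely, from -0.44 to 0.50 in wt BMDM and from -0.30 to 0.56 in MK2/3-/- BMDM.

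The median difference was -0.03 over 51 genes of the actin cytoskeleton, 0 over 39 adhesion genes, -0.04 over 24 glycolytic genes, 0.06 over 26 genes of cholesterol synthesis and uptake and 0.01 over 45 lysosomal genes, and 0 genes of any of these lists passed in limma. At an unadjusted p under 0.05 there were 2 genes of the actin cytoskeleton, 3 adhesion genes, 1 glycolytic gene, 1 gene of cholesterol synthesis and 2 lysosomal genes. The share over all genes was 4.7%. The widest difference among adhesion genes was that of Sdc4, the heparan sulfate proteoglycan syndecan-4, with signals of 9.76, 9.79, 9.39 and 9.13 in wt BMDM and of 12.88, 12.89, 11.35 and 11.44 in MK2/3-/- BMDM. The groups did not overlap, and the difference of 2.62 ± 0.61 had an adjusted p of 0.23. For 50 genes of the cell cycle and DNA replication the median was -0.10, with array medians of 0.15, -0.29, -0.49 and 0.53 in wt BMDM and of -0.91, -0.16, 0.41 and 0.27 in MK2/3-/- BMDM, which overlap.

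**Figure D5:**
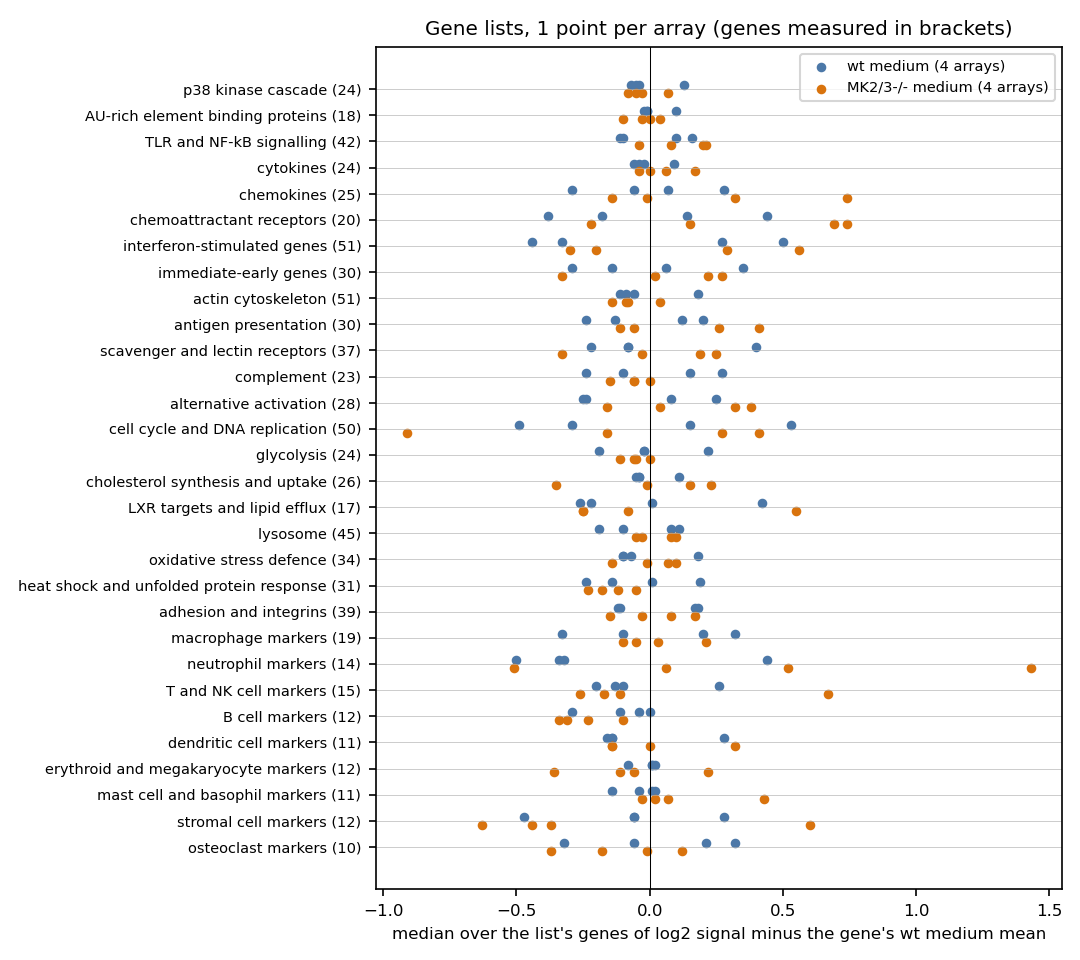
Each row is a gene list with the number of genes measured in brackets; each point is 1 array, at the median over the list's genes of the log2 signal minus that gene's mean in wt medium. In the row of neutrophil markers the orange points run from -0.51 to 1.43 and the blue points from -0.50 to 0.44; in the cell cycle row 1 orange point lies at -0.91.

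Arrays of 1 genotype differed widely in genes of stromal cells, which can accompany macrophages in bone marrow cultures. Col1a2, a type I collagen gene, had signals of 16.35, 11.85, 13.85 and 14.66 in wt BMDM and of 8.69, 10.41, 12.84 and 15.31 in MK2/3-/- BMDM. It was highest in wt replicate 1 and lowest in MK2/3-/- replicate 1, the groups overlapped, and its difference of -2.37 ± 1.54 had an adjusted p of 1. Of 12 stromal markers measured, 8 were well above background on the 4 arrays of at least 1 genotype and 1, Lum, on none of the 8 arrays. The median difference of the 12 markers was -0.15. Col1a2 was the lowest of them, and 4 lay above 0, the highest being Cdh5 at 0.38. At an unadjusted p under 0.05 in limma, 1 was lower, beside 2.23% of all genes. The summed signal of the 12 markers on the log2 scale ran from 14.08 to 16.80 in wt BMDM and from 13.41 to 16.01 in MK2/3-/- BMDM. Hspb1, which encodes the MK2 substrate Hsp27, followed the order of arrays seen for Col1a2. Its signals were 14.94, 9.30, 10.87 and 11.56 in wt BMDM and 6.90, 8.52, 10.28 and 12.12 in MK2/3-/- BMDM. Hspb1 differed by -2.21 ± 1.39 (adjusted p of 1). Fn1, which encodes fibronectin, had signals of 15.52, 10.83, 12.35 and 13.87 in wt BMDM and of 7.6, 9.6, 11.96 and 14.05 in MK2/3-/- BMDM and differed by -2.34 ± 1.51 (adjusted p of 1). Cxcl12, a chemokine gene of stromal cells, differed by -2.17 ± 1.53, and Csf1, the gene of the differentiation factor, by -2.15 ± 0.92, both with an adjusted p of 1. In bulk samples, fewer cells of a type and less RNA per cell cannot be told apart, and the part of stromal content in these differences was not tested.

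Neutrophil markers had the largest list median, 0.51 over 14 genes, with 9 well above background on the 4 arrays of at least 1 genotype. In limma 0 passed the threshold or had an unadjusted p under 0.05. Of the 14, 9 lay above 0, and the differences ran from -0.53 for Prtn3 to 1.29 for Camp. The array medians were -0.50, 0.44, -0.32 and -0.34 in wt BMDM and 0.06, 1.43, -0.51 and 0.52 in MK2/3-/- BMDM, with MK2/3-/- replicate 2 the highest. Their summed signal ran from 16.14 to 16.75 in wt BMDM and from 15.83 to 16.63 in MK2/3-/- BMDM. S100a8, an abundant neutrophil and monocyte calcium-binding protein gene, had signals of 7.97, 10.08, 7.59 and 8.27 in wt BMDM and of 9.00, 11.25, 7.09 and 9.65 in MK2/3-/- BMDM, which overlap. B cell markers had a list median of -0.40 over 12 genes, with 0 past the threshold in limma. At an unadjusted p under 0.05, 3 were lower, beside 2.23% of all genes: Fcer2a (-0.52 ± 0.19), Cd79a (-1.14 ± 0.51) and Pax5 (-0.77 ± 0.36). The other markers did not reach that p, and 4 of the 12 lay above 0, the highest being Vpreb1 at 0.42. Of the 12, 6 were well above background on the 4 arrays of at least 1 genotype and 2 on none of the 8 arrays. Their summed signal ran from 15.18 to 15.76 in wt BMDM and from 15.28 to 16.21 in MK2/3-/- BMDM.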

How the data were processed

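Total RNA was labelled with Cy3 and hybridised to 1-colour Agilent arrays (23 arrays, 62976 spots each). The authors deposited 1 Agilent Feature Extraction 11.0.1.1 file per array, whose gProcessedSignal is a linear spot intensity corrected for background by that software, and 1 table of quantile normalized log2 values relative to each probe's median, deposited by the authors and used as an alternative (column medians -0.02 to 0.02). Here log2 gProcessedSignal was used: control spots were dropped, spots marked as non-uniform or population outliers were set missing (258 of 1280663 probe values), replicate spots were averaged and the 23 arrays quantile normalized. Of 55681 probes, 29150 carried a RefSeq and 3735 a GenBank accession; 27509 were named through a RefSeq table (GRCm38.p6). A gene was read by its probe with the highest mean over all arrays, since the methods' choice, the probe most induced by LPS in wt BMDM, uses the wt arrays; it was an alternative. This gave 26014 genes, 15720 of them well above background on all 4 arrays of a group. The array design refers to mm9, so its coordinates were not used. Chromosomes and gene order came from the RefSeq table, and the promoter windows from GRCm38.p6. No spot was saturated. The number of arrays limits the precision.

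The raw spot signal with normexp was an alternative. One limma fit (3.58.1, R 4.3.3; eBayes without trend) over 6 groups gave every difference, two-sided, with Benjamini-Hochberg adjustment over all genes; the tool was tested on simulated data. Named genes were the targeted genes, up to 15 largest changes per direction among genes named through the table and well above background in the higher group, up to 4 genes per list and neighbours past the threshold within 20 places of the targeted genes; Ctse, Pcbp4, Cish, Dock3, Il10, Dars, Serpinb6e, Sdc4, the accession-only genes and list members below the threshold were chosen after their values were seen. The members and lists were chosen with earlier results of these data known. Figures used matplotlib 3.10.9. Some genes are counted but not reported here.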

Additional observations from a re-analysis of the deposited data

Results flagged for a closer look

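Among 68 groups of 4 arrays examined, for the genes past the threshold and the further genes chosen by name, 6 had 1 array far from the other 3 by Dixon's ratio of the gap to the range, at its 95% critical value. About 1 in 20 groups passes by chance where genes are not chosen by their values. Several of these genes were chosen after their values were seen, so that rate is no reference for them. Acad9 in wt BMDM had a ratio of 0.95, with replicate 1 at 11.19 and the others at 10.66 to 10.69. XM_001476155 in wt BMDM had 0.926, with replicate 3 at 17.53 and the others at 17.38 to 17.39. Ctse in MK2/3-/- BMDM had 0.937, with replicate 1 at 12.62 and the others at 12.15 to 12.18. Elk4, a transcription factor gene near Mapkapk2, had 0.85 in MK2/3-/- BMDM, with replicate 1 at 9.29 and the others at 8.08 to 8.26. Dyrk3, the kinase gene next to Mapkapk2, had 0.836 in wt BMDM, with replicate 2 at 6.18 and the others at 7.76 to 8.07. NM_133362 in MK2/3-/- BMDM had 0.951, with replicate 4 at 8.16 and the others at 4.73 to 4.90.

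Mapkapk3 differed more between MK2/3-/- and wt BMDM after LPS than in medium, by -1.68 on the log2 scale (adjusted p of 0.0113 for the interaction in limma, without pairing by culture).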

How the results depend on the processing

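Each count of genes past the adjusted threshold (20 in all, 6 higher and 14 lower) was recomputed under 28 settings, 3 of them chosen after seeing the data. The differences of these 20 genes and of Ctse, Pcbp4, Sdc4, NM_133362, Hemk1, Serpinb6e and Dars were recomputed too. This was done in 26 to 28 settings per gene, since some settings leave genes out, and none changed sign. The differences of the other genes named were not recomputed. The deposited log2 table gave the same 20 genes. Fitting the 8 arrays alone gave 11 genes (3 higher, 8 lower), and normalizing them alone as well gave 8 (2 and 6). Testing only the 20891 genes named through the table gave 13 (3 higher, 10 lower), array quality weights gave 52 (18 and 34), and scaling to the 75th percentile 16 (7 and 9). The methods' t-test gave 1326 genes on log2 values and 1247 on linear values at an unadjusted p under 0.05, and after Benjamini-Hochberg adjustment 5 (2 and 3) and 4 (1 and 3). Leaving out 1 of the 8 arrays gave 11 to 19 genes, 2 to 7 higher and 8 to 13 lower. Leaving out both MK2/3-/- replicates 1 and 2 gave 19, but 13 higher and 6 lower. Leaving out the genes within 20 places of the targeted genes gave 15, 6 higher and 9 lower. The cause of these changes was not tested, other than fewer genes or arrays where the setting itself removed them.

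With the culture as a replicate block (a shared correlation of 0.255) 22 genes passed, 19 of them among the 20; Zfp932 was lost (adjusted p of 0.0621), and Ctse (0.048), Dars (0.0384) and Fabp7 (0.0444) were gained. The methods describe an untreated wt baseline within each experiment, so wt and MK2/3-/- arrays may have been paired. Replicate numbers were not taken as these pairs, since no source ties a number to 1 experiment. Same-numbered arrays deviated from their group means with correlations of -0.159, 0.287, 0.112 and 0.157. For the medium and LPS arrays of 1 culture these were 0.282, 0.0893, 0.144 and 0.272 in MK2/3-/- BMDM. In wt BMDM they were 0.568, 0.455, 0.258 and 0.218. The ranges overlap, so the correlations cannot decide whether the numbers pair. With the number as a block within the 8 arrays 0 genes passed in limma (0 higher, 0 lower), and 1628 had an unadjusted p under 0.05, beside 11 and 1295 without the block. AK035916, well above background on 1 of 8 arrays, rose by 1.78 and differed by 0.19 with normexp, whose offset of 50 shrinks differences between low signals by construction.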
